A study of Mus musculus with 6 samples.

Results

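The core genes of de novo lipogenesis were followed here in mouse liver: Slc25a1, Acly, Acss2, Me1, Acaca, Acacb, Fasn, Thrsp, Pnpla3 and Srebf1. They were taken by gene symbol and are 10 of the 55401 gene models in the table. All 10 were among the 14741 genes whose mean FPKM reached 0.1, where FPKM is the number of fragments per kilobase of transcript, scaled to the depth of the library. Liver RNA came from 6 male C57BL/6 mice, 8 weeks old at the start, that carried no engineered allele named in the labels. The 3 mice of the 9/13-HODEs group were given an equal mix of 9-HODE and 13-HODE by daily intraperitoneal injection over 9 days, together 0.5 μg per g of body weight. The 3 Ctrl mice received the solvent alone. Both compounds are hydroxylated derivatives of linoleic acid. The groups cover 1 sex, 1 strain and 1 dose. Food was freely available except in fasting experiments, and the study measured fasting blood glucose in mice under this treatment. Whether the mice were fed or fasted when the liver was taken is not given in the sources used here.

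De novo lipogenesis builds fatty acids from acetyl-CoA in the cytosol. Mitochondrial citrate is exported and split to acetyl-CoA, acetyl-CoA carboxylase makes malonyl-CoA from it, and fatty acid synthase joins the units to palmitate with electrons from NADPH. In the liver the genes of this route are known to be high after carbohydrate feeding and low in fasting, under the transcription factors SREBP-1c (a product of Srebf1), ChREBP and LXR. The question was whether the livers of mice given 9/13-HODEs held more of these transcripts than Ctrl livers.

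Of the 10 genes, 8 had a positive log2 fold change (9/13-HODEs against Ctrl) and 2, Me1 and Srebf1, a negative one, with a median of 0.65. Over all tested genes 50.1% had a positive value and the median was 0.00. None of the 10 passed an adjusted p of 0.05 by the quasi-likelihood test of edgeR and Benjamini-Hochberg adjustment, a limit that 3 of all tested genes passed (0.0204%). Without adjustment the same test gave a p under 0.05 for 3 members, Thrsp, Acaca and Acacb, all higher in treated livers. Of all tested genes 4.08% were higher at this limit and 3.61% lower. DESeq2 put 5 members under 0.05 without adjustment, adding Fasn and Acss2, and 0 after adjustment, the smallest adjusted p being 0.0716 for Thrsp. By DESeq2 89 of all tested genes passed adjustment, and the share of them under 0.05 without adjustment was not counted. The methods of the study define changed genes by a log2 fold threshold of 0.65. On the ratio of mean FPKM (each + 0.1), 3 members, Thrsp, Fasn and Pnpla3, were above it, as were 4.61% of tested genes. With an unadjusted edgeR p under 0.05 required as well, a limit joined to the threshold here, it was 1 member, Thrsp, and 1.49% of tested genes. In bulk liver, fewer cells of a type and less RNA per cell cannot be told apart.

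The 6 libraries held between 70300597 and 78615288 counts, so the spread between mice and not the counting error limited the precision for every member except Pnpla3. Mitochondrially encoded transcripts took 6.70 to 9.51% of the counts in Ctrl livers and 10.5 to 11.8% in treated livers. The summed FPKM of hepatocyte markers lay between 60928 and 66966 in Ctrl and between 56783 and 67014 in treated livers. Adipocytes also use this pathway. The sum of 8 adipocyte markers was 561 to 650 in Ctrl and 305 to 440.3 in treated livers, nearly all of it Car3, which hepatocytes express too. Without Car3 the other 7 summed to 1.35 to 4.39 in Ctrl and 3.22 to 7.68 in treated livers. Of the 4 markers that could be tested, Car3 was lower and Retn, Cfd and Fabp4 were higher on average. Retn reached the FPKM minimum only through the treated livers, so it could only come out higher. Adipoq, Lep and Plin1 had 63, 4 and 38 counts in 9/13-HODEs replicate 1 and 0 in the other 5 libraries, and Retn had 0 in every Ctrl liver and 61, 8 and 10 in the treated livers. Stellate and cholangiocyte markers summed to 17.5 to 18.7 in Ctrl and 19.2 to 21.1 in treated livers. Of these 9 genes 8 had a positive log2 fold change. Taken singly, 0 had groups apart in FPKM and 0 an unadjusted p under 0.05 by edgeR. The summed ranges of macrophage, endothelial and leukocyte markers overlapped between groups. The part of these differences in the results below was not tested.

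**Figure D1:**
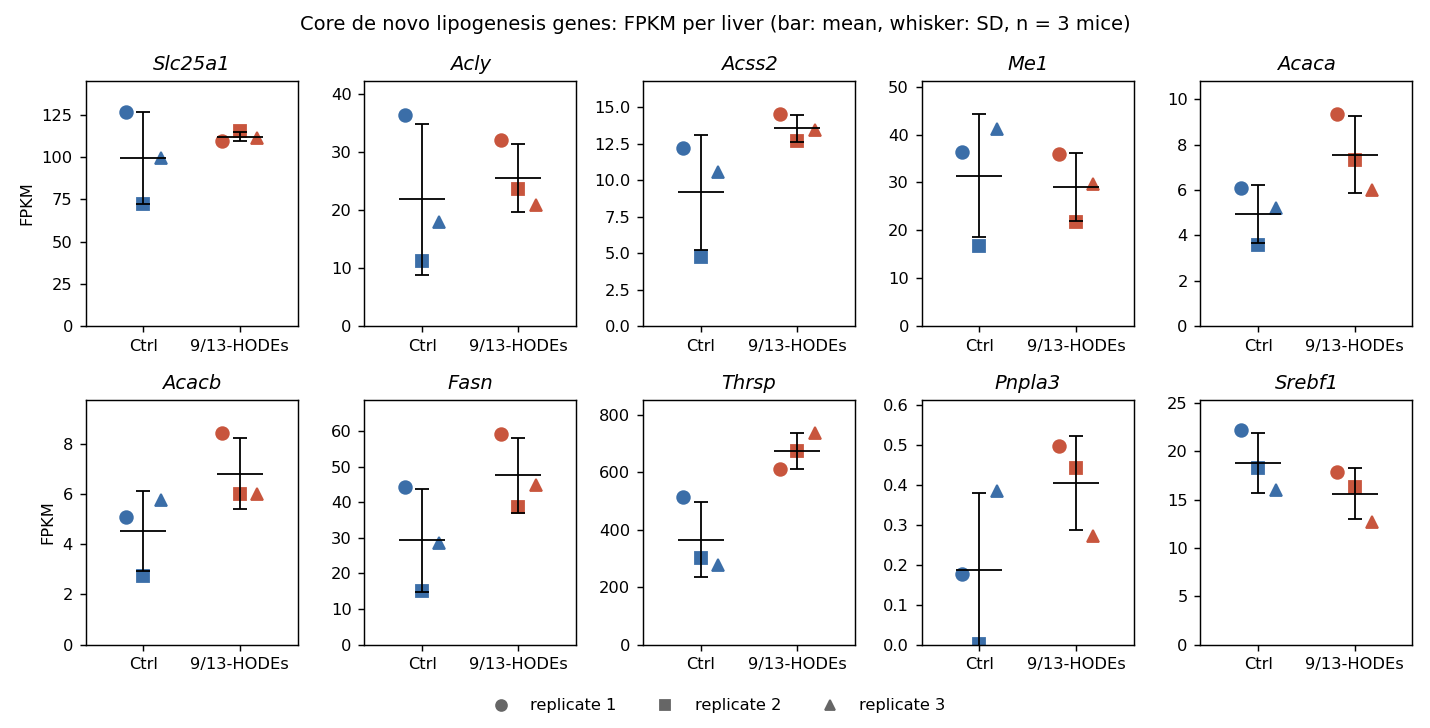
FPKM (vertical axes, linear and starting at 0) of each of the 10 genes in 3 Ctrl livers (blue) and 3 livers of mice given 9/13-HODEs (red), with the shape of the symbol naming the replicate, the bar the mean and the whisker the SD. The square in Ctrl, replicate 2, is the lowest of 6 livers for 8 of the 10 genes, and the groups are apart only for Acss2, Acacb and Thrsp.

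Levels per length spanned a wide range in Ctrl livers. Thrsp was first and Slc25a1 second in all 6 libraries. Me1, Fasn, Acly and Srebf1 followed with Ctrl ranges that overlapped between neighbours, then Acss2, Acaca and Acacb, again with overlapping ranges, and Pnpla3 was last. The steps from Thrsp to Slc25a1, from Slc25a1 to Me1, from Srebf1 to Acss2 and from Acacb to Pnpla3 were larger than the spread between Ctrl livers.

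The supply of cytosolic acetyl-CoA starts with Slc25a1, the citrate carrier of the inner mitochondrial membrane (chromosome 16, 17925223 to 17928219). Its FPKM was 127, 72.4 and 99.6 in Ctrl replicates 1 to 3 and 109.6, 115 and 111 in 9/13-HODEs replicates 1 to 3. The treated livers lay inside the Ctrl range and were closer to each other (SD 2.88 against 27.2). The log2 fold change was 0.24 (95% interval -0.21 to 0.69). Acly, which cleaves the exported citrate (chromosome 11, 100476353 to 100528000), had 36.4, 11.2 and 17.9 in Ctrl livers and 32.2, 23.6 and 21 in treated livers. The highest and the lowest liver were both Ctrl, the log2 fold change was 0.29 (-0.68 to 1.27), and it was -0.01 without Ctrl replicate 2 and 0.89 without Ctrl replicate 1. Acss2 makes acetyl-CoA from acetate instead of citrate (chromosome 2, 155517948 to 155576980). It had 12.2, 4.72 and 10.6 in Ctrl livers against 14.5, 12.7 and 13.4 in treated livers. Every treated liver was above every Ctrl liver (exact permutation p = 0.1, two-sided, the smallest that 3 mice against 3 allow), while the log2 fold change was 0.64 (-0.11 to 1.39) and the adjusted p from edgeR 0.677. Leaving out Ctrl replicate 2 lowered that fold change to 0.34.

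Acss2 shares 395 exonic bases with the glutathione synthetase gene Gss on the opposite strand. The FPKM of Gss was between 13.6 and 14.8 in Ctrl and between 12.5 and 13.8 in treated livers, a log2 fold change of -0.04. How reads were divided between overlapping genes is not given in the sources used here.

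Me1, the cytosolic malic enzyme that yields NADPH (chromosome 9, 86581371 to 86695953), had 36.4, 16.8 and 41.1 in Ctrl livers and 35.9, 21.7 and 29.7 in treated livers. All treated livers lay within the Ctrl range. The log2 fold change was -0.02 (-0.83 to 0.78), and its sign turned with the library left out.

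Both acetyl-CoA carboxylases, the enzymes of the committed step, were on average higher in treated livers. Acaca encodes the cytosolic form, whose malonyl-CoA feeds synthesis (chromosome 11, 84129672 to 84401645). It had 6.08, 3.57 and 5.22 in Ctrl livers and 9.36, 7.31 and 6.02 in treated livers. The lowest treated liver was just under the highest Ctrl liver. The log2 fold change was 0.68 (0.15 to 1.20), with an unadjusted p of 0.0185 and an adjusted p of 0.649 by edgeR. Acacb encodes the form at the outer mitochondrial membrane, whose malonyl-CoA restrains CPT1 and fatty acid oxidation (chromosome 5, 114146535 to 114250761). It had 5.11, 2.75 and 5.76 in Ctrl livers and 8.46, 6.0 and 6.02 in treated livers. The groups did not overlap, the nearest livers being at 5.76 and 6.0, and the log2 fold change was 0.67 (0.02 to 1.31, unadjusted p = 0.0440, adjusted p = 0.649, edgeR). The unadjusted p of Acaca was no longer under 0.05 without 9/13-HODEs replicate 1 (log2 fold change 0.50). That of Acacb stayed under it only when Ctrl replicate 3 or 9/13-HODEs replicate 2 was the library left out, and its log2 fold change was 0.43 without Ctrl replicate 2, 0.49 without 9/13-HODEs replicate 1, 0.77 without Ctrl replicate 1 and 0.71 without 9/13-HODEs replicate 3. The FPKM ratio of Acaca to Acacb stayed between 0.906 and 1.3 in Ctrl and between 1.0 and 1.22 in treated livers.

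Fasn, the fatty acid synthase that carries out all later steps to palmitate (chromosome 11, 120805846 to 120824547), had 44.2, 15.2 and 28.6 in Ctrl livers and 59.3, 38.7 and 44.9 in treated livers. Ctrl replicate 1 lay within the treated range and Ctrl replicate 2 far below it. The log2 fold change was 0.78 (-0.11 to 1.66), with an unadjusted p of 0.0771 and an adjusted p of 0.676 by edgeR, and 0.30 once the libraries Ctrl replicate 2 and 9/13-HODEs replicate 1 were both left out.

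Thrsp encodes Spot 14, a small acidic protein induced by thyroid hormone and carbohydrate that is known to promote lipogenesis (chromosome 7, 97412938 to 97417730). Its FPKM was 515, 302 and 277 in Ctrl livers and 611, 674 and 736 in treated livers. The groups were apart, with the nearest pair 515 and 611, and Ctrl replicate 3, not Ctrl replicate 2, was lowest. The log2 fold change was 0.95 (0.32 to 1.59), with an unadjusted p of 0.00950 and an adjusted p of 0.649 by edgeR, and by p it ranked 202 among all tested genes. Across the 20 alternative settings its log2 fold change stayed between 0.77 and 1.29, and it was the only member with an unadjusted p under 0.05 in every one of them. The study had singled out Fasn and Thrsp in these same livers, so their place here is not independent evidence. Beyond these libraries, it reported qPCR changes of both genes in more mice under this treatment, and higher FASN protein. Neither was examined here.

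Pnpla3, a lipid droplet protein that is a target of SREBP-1c and ChREBP, was hardly detected (chromosome 15, 84167837 to 84187236). Its counts were 23, 0 and 49 in Ctrl livers and 62, 59 and 37 in treated livers, or an FPKM of at most 0.498. The groups overlapped, and the log2 fold change of 1.20 had an interval of -1.40 to 3.80. A processed pseudogene on the opposite strand, Gm20369, lies within the locus, with a mean of 129 counts and 0 exonic bases shared.

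Srebf1, the gene of the regulator (chromosome 11, 60199089 to 60222581), had a fold change of opposite sign to most of its known targets, with an interval that included 0. Its FPKM was 22.2, 18.3 and 16.0 in Ctrl livers and 17.8, 16.4 and 12.7 in treated livers. The ranges overlapped in FPKM though not in TPM (FPKM rescaled to a common sum), the log2 fold change was -0.21 (-0.61 to 0.19, adjusted p = 0.770, edgeR), and it stayed negative in all 20 alternative settings, between -0.35 and -0.08. The gene-level value does not separate SREBP-1a from SREBP-1c, and the cleavage that activates the protein is not measured by RNA. By qPCR under this treatment the study reported no change of either form. It reported more of the cleaved protein, with the full-length protein unchanged.

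**Figure D2:**
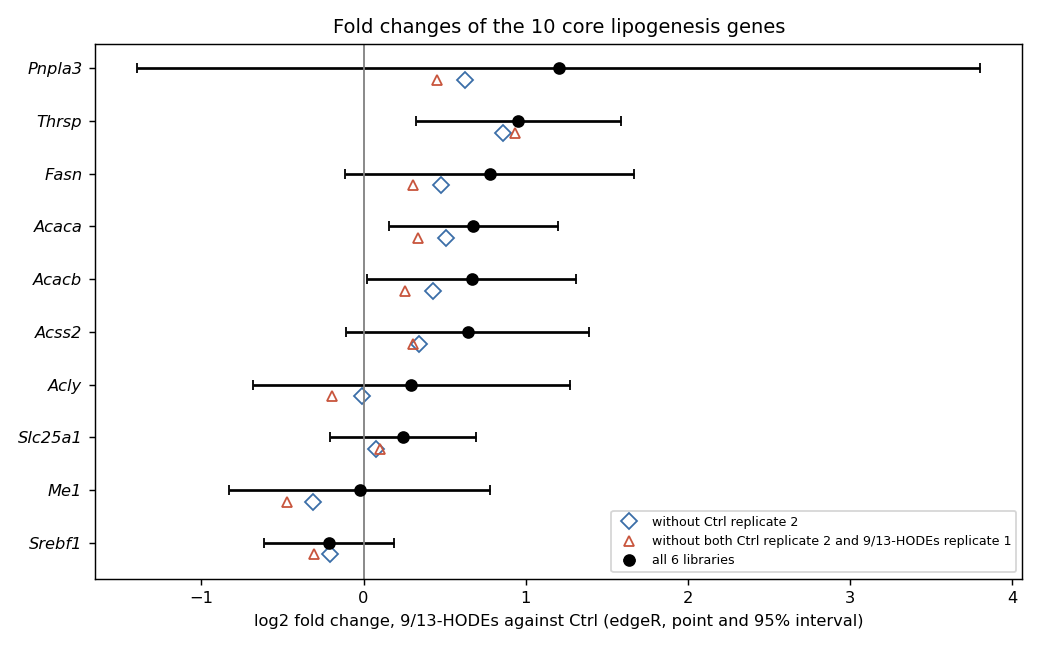
Log2 fold change (horizontal axis) of the 10 genes, 9/13-HODEs against Ctrl, by edgeR on counts, with 95% intervals for all 6 libraries (black), and the values without Ctrl replicate 2 (blue diamonds) and without both Ctrl replicate 2 and 9/13-HODEs replicate 1 (red triangles). The intervals of Thrsp, Acaca and Acacb exclude 0, and the median of the 10 values goes from 0.65 to 0.38 and 0.28 as the libraries are left out.

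The 10 genes also varied together among mice of the same group. Ctrl replicate 2 was the lowest of the 6 livers for 8 of the 10 genes, all but Thrsp and Srebf1, against 16.2% of all tested genes. The library 9/13-HODEs replicate 1, the one with counts of Adipoq and Plin1, was the highest for 5 of the 10, against 14.9%. On average over the 10 genes, log2(FPKM + 0.1) centred on the mean of the 6 libraries was 0.19, -0.87 and -0.07 in Ctrl livers and 0.46, 0.17 and 0.12 in treated livers. Without Pnpla3, which had 0 counts in Ctrl replicate 2, it was 0.25, -0.77 and -0.13 against 0.42, 0.12 and 0.12. Ctrl replicate 1 thus stood among the treated livers on this scale. The median log2 fold change of the members was 0.38 without Ctrl replicate 2, 0.50 without 9/13-HODEs replicate 1 and 0.28 without both, and with both left out only Thrsp kept an unadjusted p under 0.05. The members with a positive value then numbered 7 without Ctrl replicate 2 and 7 without both. Without Ctrl replicate 1 there were 9, and the median was 0.88.

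Genes of cholesterol synthesis and uptake, which are driven by SREBP-2, were also low in Ctrl replicate 2. Of 10 such genes 8 were lowest in Ctrl replicate 2, and their median log2 fold change was 0.06 with 0 members at an unadjusted p under 0.05 by edgeR and 0 after adjustment. Lss, the cyclase of the sterol ring, had 0.915, 0.458 and 1.11 FPKM in Ctrl livers and 1.10, 0.835 and 0.785 in treated livers, which lay within the Ctrl range. Sqle, which oxidizes squalene and was picked after its values were seen, had 3.74, 0.264 and 3.52 in Ctrl livers and 3.26, 1.3 and 2.21 in treated livers. The lowest liver was again Ctrl replicate 2. This was not confined to SREBP-linked genes. Among lists counted below, Ctrl replicate 2 was lowest for 7 of 12 genes of the feeding and fasting response. It was lowest for 6 of 13 genes of elongation, desaturation and first acylation and 4 of 7 of the citrate shuttle. Among activators of lipogenesis it was lowest for 1 of 12, and from insulin to AKT and mTORC1 for 1 of 13, against 16.2% of all tested genes.

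**Figure D3:**
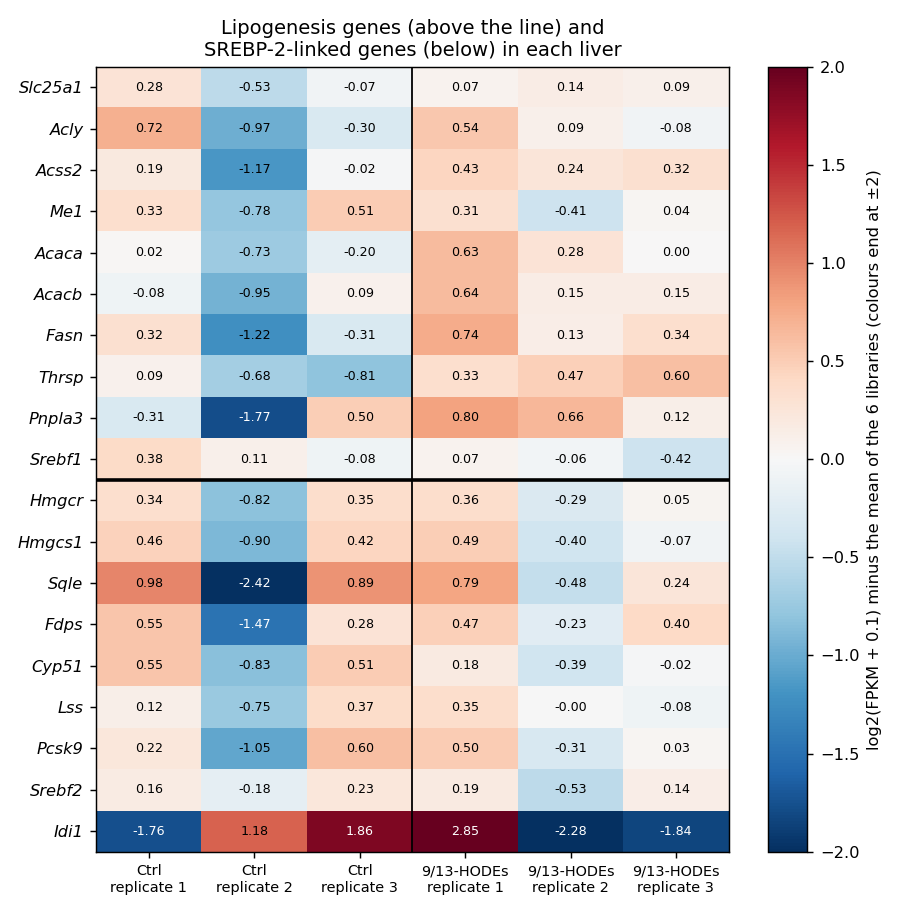
Colour and number give log2(FPKM + 0.1) of a gene (rows) in a liver (columns) minus the mean over the 6 livers, for the 10 core lipogenesis genes above the black line and 9 SREBP-2-linked genes below it. Ctrl replicate 2 is low for most genes of both blocks (-1.22 for Fasn and -2.42 for Sqle), but not for Srebf1 (0.11) and Idi1 (1.18). The treated livers are higher than the other Ctrl livers only in part of the upper block.

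The genes outside the list whose profile over the 6 libraries was most like the mean of the 10 were Fmo4, Inpp5k, Cnp, Aqp8 and Sbk1, among genes whose mean FPKM reached 1. Their root mean square difference from that mean, on the centred log2(FPKM + 0.1) scale, was between 0.053 and 0.11. Aqp8, a water channel, had 69.1, 33.4 and 51.5 FPKM in Ctrl livers and 91.9, 73.6 and 61.2 in treated livers. Fmo4, a flavin-containing monooxygenase, had 1.78, 0.773 and 1.41 against 2.32, 1.80 and 1.64. Both were lowest in Ctrl replicate 2 and highest in 9/13-HODEs replicate 1. Of the members themselves Acaca was nearest, at 0.14 and rank 10, followed by Acss2 and Acacb at 0.15. Thrsp at 0.40, Srebf1 at 0.50 and the hardly detected Pnpla3 at 0.54 were far from the common profile. Being near here describes 6 libraries and was not tested.

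By the separation of groups, every treated liver was above every Ctrl liver for 3 of the 10 members, Acacb, Acss2 and Thrsp, against 5.28% of all tested genes in FPKM. In TMM-scaled CPM, which are counts scaled to depth and composition, Acaca joined them, and it was 4 members against 7.98%. In TPM Thrsp alone remained apart and higher, against 3.39%, and Srebf1, whose groups overlapped in FPKM, was apart and lower, against 14.8%. By limma-trend the median log2 fold change of all genes was -0.14 and that of the members 0.54 on the rescaled values, and -0.06 and 0.62 on FPKM as deposited (each + 0.1).

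The promoters of the members were read from RefSeq (build GRCm38.p6), as 13 windows for the 10 genes that run from 250 bases before to 50 after each listed start. The CCAAT box, the site of NF-Y, which is known to work beside SREBP, was searched as CCAAT on both strands. It was in 10 of the 13 windows and in 9 of the 10 genes, against 37.4% of the 32851 windows of all genes. Acaca had none in its window, which lies inside the gene by the positions given above. Windows of Fasn, Thrsp and Slc25a1 held more than 1, as did 11.7% of all windows. The sterol regulatory element searched as TCACNCCAC was in 0 of the 13 windows (1.24% of all), the E-box CACGTG in that of Slc25a1 alone (7.15%), and the GC box GGGCGG in 7 (35.7%). These are matches of letters in 1 window near a start and say nothing of binding.

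The last 120 bases before the start listed by RefSeq are shown for Thrsp, Fasn, Acacb and Acss2. These are the 4 members of largest fold change among those with a single listed start that carry a CCAAT box and are well detected. The stretch before the first listed start of Me1, whose treated livers lay within the Ctrl range, is shown too. The choice was made after the values of these members were seen. It required a box in the first 4, so no link between box and fold change can be read from the stretches shown. Slc25a1 and Acly, with log2 fold changes of 0.24 and 0.29, are not shown and hold CCAAT boxes in their windows too. Listed starts can differ from the gene positions given above. By those positions the stretches of Thrsp and Acacb lie inside the gene, those of Acss2 and Me1 in part, and that of Fasn just before it. They run 5′ to 3′ on the strand of the gene, with CCAAT or its reverse complement in capitals, and lie at chr7:97417551-97417670 (minus strand), chr11:120824548-120824667 (minus), chr5:114165398-114165517 (plus), chr2:155517923-155518042 (plus) and chr9:86695915-86696034 (minus).
Thrsp: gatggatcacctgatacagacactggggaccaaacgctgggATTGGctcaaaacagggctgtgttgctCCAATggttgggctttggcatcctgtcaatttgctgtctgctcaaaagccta
Fasn: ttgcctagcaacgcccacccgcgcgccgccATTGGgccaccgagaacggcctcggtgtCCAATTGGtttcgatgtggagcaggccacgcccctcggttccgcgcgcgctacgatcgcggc
Acacb: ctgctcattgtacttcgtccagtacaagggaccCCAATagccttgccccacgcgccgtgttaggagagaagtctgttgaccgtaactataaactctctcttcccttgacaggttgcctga
Acss2: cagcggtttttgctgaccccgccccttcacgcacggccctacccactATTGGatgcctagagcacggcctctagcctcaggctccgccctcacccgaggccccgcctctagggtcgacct
Me1: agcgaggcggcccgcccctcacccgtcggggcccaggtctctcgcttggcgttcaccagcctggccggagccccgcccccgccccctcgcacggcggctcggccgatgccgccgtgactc
In Fasn a forward and a reverse match overlap, which gives the run of 8 capitals. Thrsp has 1 box on each strand, Acacb and Acss2 have 1 box each, and the stretch of Me1 has 0. Me1 has a second listed start, whose window does hold a CCAAT box.

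The genes around the core pathway were counted list by list, and of 118 genes tested, the core included, 0 passed an adjusted p of 0.05 by edgeR and 2 by DESeq2, Elovl6 and G6pc (89 of all tested genes did by DESeq2). Among 13 genes of elongation, desaturation and first acylation, 6 were higher and 7 lower, with a median log2 fold change of -0.06. Elovl6, which extends palmitate to stearate and was also singled out by the study, had the smallest p of any gene on these pathway lists, with 20.2, 12.3 and 14.1 FPKM in Ctrl livers and 43.5, 37.4 and 29.8 in treated livers. The groups were well apart and Ctrl replicate 2 was again lowest (log2 fold change 1.31, unadjusted p = 0.000545, adjusted p = 0.365 by edgeR and 2.58e-05 by DESeq2). For Elovl6 too the study reported a qPCR change in more mice. Scd1, the desaturase that makes oleate, also did not overlap (log2 fold change 0.49, unadjusted p = 0.0859, edgeR). Hacd3, a dehydratase of elongation, was lower without overlap in FPKM (9.82% of all tested genes were) but overlapped in TMM-scaled CPM, and its log2 fold change was -0.06.

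For the supply of NADPH, 6 of 7 genes were higher with a median of 0.31, and 2 had an unadjusted p under 0.05 by edgeR. G6pdx, the first enzyme of the pentose phosphate pathway, had 2.11, 0.740 and 2.41 FPKM in Ctrl livers and 6.0, 4.62 and 2.80 in treated livers. The groups were apart, though 9/13-HODEs replicate 3 was close to Ctrl (log2 fold change 1.42, unadjusted p = 0.0164, edgeR). Tkt, the transketolase of the same pathway, had 24.5, 19.9 and 23.2 against 28.7, 29.7 and 28.1 (log2 fold change 0.42, unadjusted p = 0.00364, edgeR). Me1, the NADPH source within the core list, had a log2 fold change of -0.02, and the difference between it and these genes was not tested.

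Among 11 genes of sugar supply and ChREBP, 9 were higher with a median of 0.09, and 2 had an unadjusted p under 0.05 by edgeR. Pklr, the liver pyruvate kinase and a ChREBP target, had 144, 134 and 112 FPKM in Ctrl livers and 199, 173 and 179 in treated livers. Khk, the fructokinase, had 273, 236 and 254 against 311, 313 and 297. Neither gene overlapped between groups, with log2 fold changes of 0.56 and 0.34. All 7 tested genes of the citrate shuttle had positive values, with a median of 0.17 and 0 at an unadjusted p under 0.05 by edgeR. The smallest p there belonged to Cs, the citrate synthase (log2 fold change 0.16, unadjusted p = 0.101, edgeR), and Slc25a11, the oxoglutarate carrier (0.19, unadjusted p = 0.114, edgeR).

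Upstream regulators had medians near 0. Among 12 activators of lipogenesis 4 were higher and 8 lower, with a median of -0.04 and 0 at an unadjusted p under 0.05 by edgeR. Nfya, a subunit of NF-Y, had a log2 fold change of 0.40, and Nr1h3, which encodes LXRα, -0.13. Among 12 genes of SREBP processing and turnover 6 were higher and 6 lower, with a median of 0.02. Lpin1, a phosphatidate phosphatase that also restrains SREBP in the nucleus, had 9.20, 20.3 and 12.5 FPKM in Ctrl livers and 16.7, 32.5 and 27.7 in treated livers, with overlap (log2 fold change 0.93, unadjusted p = 0.0396, edgeR). Unlike the core genes it was highest in Ctrl replicate 2 among Ctrl livers. Mbtps2, the site-2 protease of SREBP cleavage, was lower without overlap (-0.22, unadjusted p = 0.284, edgeR). Of 13 genes from insulin to AKT and mTORC1, 9 were higher with a median of 0.06. Tsc1, an inhibitor of mTORC1, had 0.446, 0.429 and 0.622 against 0.325, 0.365 and 0.266 FPKM, apart and lower (-0.58, unadjusted p = 0.0210, edgeR).

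Of 10 genes that control acetyl-CoA carboxylase or use malonyl-CoA, 4 were higher and 6 lower, with a median of -0.02 and 0 at an unadjusted p under 0.05 by edgeR. AMPK, which phosphorylates and inhibits both carboxylases, has its subunits on this list. Prkaa2, a catalytic subunit, had 2.40, 2.46 and 3.02 FPKM in Ctrl livers and 2.25, 2.24 and 1.73 in treated livers. Prkaa1 had 1.03, 1.0 and 1.10 against 0.779, 0.906 and 0.866, and Prkag1, a regulatory subunit, 13.6, 12.5 and 14.5 against 10.7, 11.8 and 11.2. These 3 subunits were lower without overlap in FPKM and also in TMM-scaled CPM, where 7.5% of all tested genes were, with log2 fold changes of -0.28, -0.23 and -0.20. Prkab2, the least abundant of the subunits listed, was higher without overlap (0.65). Kinase activity is not measured here.

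Of 12 genes of the feeding and fasting response 9 were higher, with a median of 0.29. Among the higher ones 3 genes known to be high in fasting were at an unadjusted p under 0.05 by edgeR. G6pc, which releases glucose, had 37.2, 31.6 and 44.9 FPKM in Ctrl livers and 50.2, 68.5 and 61.9 in treated livers, without overlap (log2 fold change 0.74, unadjusted p = 0.00222 by edgeR, adjusted p = 0.649 by edgeR and 0.0235 by DESeq2). Higher G6pc in treated livers was reported by the study from this sequencing and from qPCR. Angptl4, an inhibitor of lipoprotein lipase, and Fgf21, a hepatokine, overlapped between groups (0.39 and 0.82). The 5 tested genes of mitochondrial fatty acid synthesis, a separate pathway, had a median of -0.03 and 0 at an unadjusted p under 0.05 by edgeR, with Mecr at -0.22 and Ndufab1 at 0.12.

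**Figure D4:**
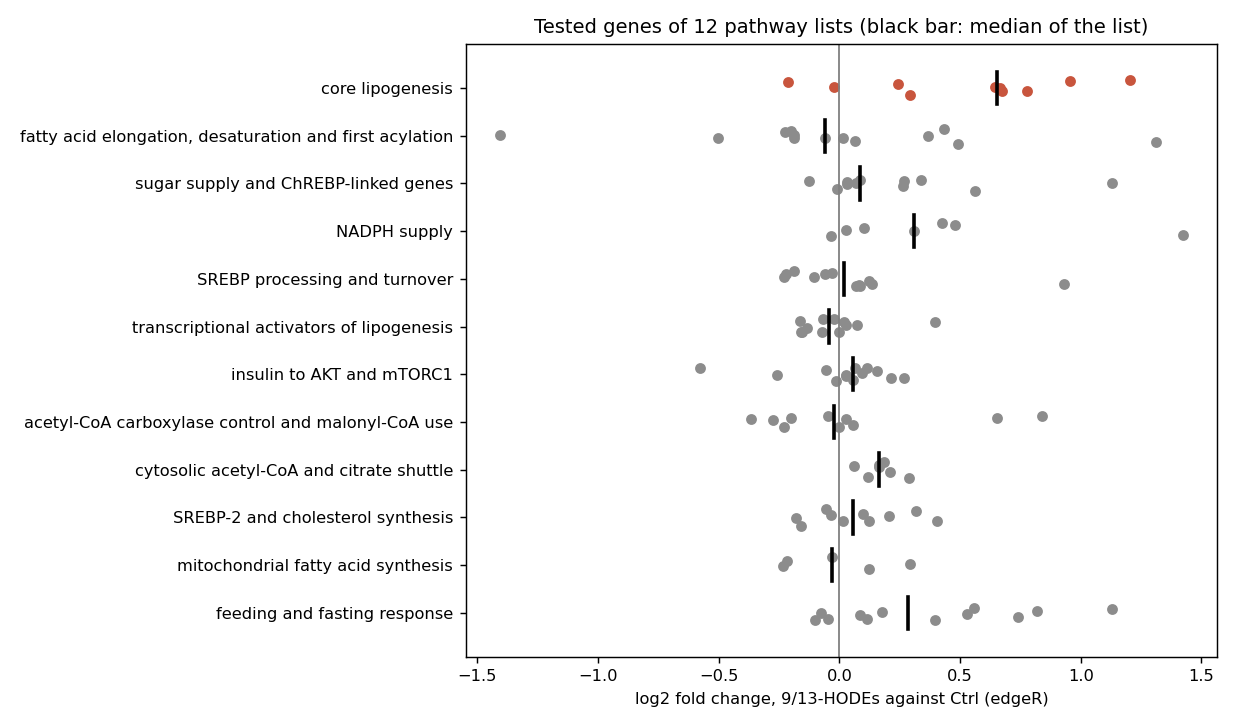
Each point is the log2 fold change (horizontal axis, edgeR, 9/13-HODEs against Ctrl) of a tested gene in 1 of 12 pathway lists (rows), and the black bar is the median of the list. The core lipogenesis genes (red) have a median of 0.65, and the medians of the other lists lie between -0.06 and 0.31.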

How the data were processed

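Liver RNA of 3 Ctrl mice and 3 mice given 9/13-HODEs was sequenced, as 1 library from each. A single table was deposited by the authors, with whole-number counts and FPKM values of each gene model. FPKM was deposited as scaled by the authors to length and depth, and equals counts over the library total times a constant per gene to within 1.74% (2.62% for Pnpla3). The submitters' processing notes list HISAT2 2.0.4 and StringTie 1.3.4d beside cutadapt 1.9, UMI-tools, edgeR and DESeq2, with no roles. The build is not given in the sources used here, and 54928 gene starts equal those of GENCODE M21 (GRCm38). Of the members, 8 equal that annotation in start, end and strand, and Acaca and Acss2 do not.

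Counts of the 14741 genes whose mean FPKM reached 0.1 were tested with edgeR 4.0.16 (R 4.3.3, TMM, quasi-likelihood test, Benjamini-Hochberg adjustment over all of them, threshold 0.05). Intervals are 95%, SD is over n = 3 mice, and single values were compared with the exact permutation test. Alternatives used DESeq2 1.42.0 and limma 3.58.1 (log2 of FPKM plus 0.1 or 1), other scalings and filters, a fold threshold of 1, each library left out and a replicate block. TMM-scaled CPM and TPM for the separation of groups, the fold threshold without a p limit, and omission of 2 libraries together, were chosen after seeing the data. The fits were tested on simulated data. The members and lists were chosen with earlier results of these data known. Named are all members, of each list up to 4 genes with an unadjusted p under 0.05 or groups apart (else the 2 of smallest p), and the 5 genes of nearest profile, while some genes counted in the lists are not reported here by name. Hsd17b8 was not analysed here, and Slc13a5 and Acss1 were under the FPKM minimum.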

Additional observations from a re-analysis of the deposited data

How the results depend on the processing

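No member passed an adjusted p of 0.05 under any of the 20 alternative settings, and the smallest adjusted p was 0.0716 (Thrsp, DESeq2). Members past the fold threshold of the methods with an unadjusted p under 0.05, the p being a limit added here, numbered 3 without the p limit, 2 by DESeq2, 2 with the replicate block, 0 with a fold threshold of 1, and 1 to 5 with 1 library left out (5 without Ctrl replicate 1). Members whose groups were apart with the treated livers higher numbered 1 in TPM (where Srebf1 was apart and lower), 4 in TMM-scaled CPM, and 3 to 7 with 1 library left out (7 without Ctrl replicate 1). Groups are more easily apart with fewer libraries. The share of all tested genes at these limits was not counted with libraries left out, by DESeq2, with the replicate block or with a fold threshold of 1. Me1 turned to 0.027 by limma-voom and 0.027 with the replicate block, and ranged from -0.47 (without both Ctrl replicate 2 and 9/13-HODEs replicate 1) to 0.18 with libraries left out. Acly ranged from -0.01 to 0.89 with 1 library left out and was -0.20 without both Ctrl replicate 2 and 9/13-HODEs replicate 1. The median log2 fold change of the SREBP-2 list was -0.46 without both. The cause of these shifts was not tested. Deviations of same-numbered libraries correlated at 0.022, -0.0096 and -0.0069, so these libraries showed no large shared deviation. Whether the mice were paired in another way is not given in the sources used here. The replicate block put 5 members at an unadjusted p under 0.05 by edgeR and 0 past adjustment. The share of all tested genes under that p with the block was not counted. With 3 mice against 3 the exact permutation p cannot go below 0.1, and Pnpla3 is limited by its counts.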

Other observations

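The ratio of a member to Srebf1 in the same liver was chosen after the values were seen. By this ratio 5 members were apart between groups, of which Acacb, Acss2 and Thrsp were already apart in FPKM. The FPKM ratio of Fasn to Srebf1 was 1.99, 0.827 and 1.78 in Ctrl livers and 3.32, 2.37 and 3.54 in treated livers. That of Thrsp to Srebf1 was 23.2, 16.5 and 17.3 against 34.2, 41.2 and 58.0, and that of Acaca 0.274, 0.195 and 0.326 against 0.525, 0.447 and 0.474. Acacb and Acss2 were likewise apart, whereas Acly, Me1, Slc25a1 and Pnpla3 overlapped. Of the 9 ratios computed, the 5 that were apart each had an exact permutation p of 0.1 (two-sided), the smallest that 3 against 3 allow. The share of all tested genes whose ratio to Srebf1 was apart was not counted. The FPKM of Fasn and of Acaca overlapped between groups without this division, and that of Srebf1, the divisor, was 16.0 to 22.2 in Ctrl and 12.7 to 17.8 in treated livers.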
